A study of Homo sapiens with 6 samples.

Results

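Genes of the lysosome were followed in AF22 cells, a human neural stem cell line derived from induced pluripotent stem cells, after knockdown of BMI1 and its read-through transcript COMMD3-BMI1. The set holds 40 genes of the 26485 symbols in the count files and was listed by name: hydrolases, cathepsins, membrane proteins, cofactor precursors, TFE transcription factors and the autophagy receptor SQSTM1. Of these, 37 had enough reads to be tested, and IDUA, CTSH and CTSZ did not. The study compared 3 libraries of AF22 cells with the BMI1/COMMD3-BMI1 knockdown and 3 libraries of AF22 cells of WT genotype labelled shControl, a control for short hairpin RNA. All 6 libraries come from this single cell line. The labels name no time point and no hairpin sequence, and do not say whether the numbered libraries of a group came from separate cultures. The p-values thus set the group difference against variation among the 6 libraries, and that variation could be technical. In the fit with the library number as a block, used below, only the variation left after differences between numbers enters.

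Lysosomes are acidic organelles that break down proteins, lipids and glycans delivered by endocytosis and autophagy. Their enzymes are made in the endoplasmic reticulum, tagged with phosphorylated mannose and sorted to an organelle bounded by heavily glycosylated membrane proteins such as LAMP1 and LAMP2. Transcription factors TFEB and TFE3, held in the cytoplasm by the kinase complex mTORC1 when nutrients are plentiful, switch on many lysosomal and autophagy genes through a palindromic promoter element named CLEAR, which is built around an E-box. An enlarged lysosomal compartment is a known feature of senescent cells, and the senescence stain for beta-galactosidase activity reads the enzyme encoded by GLB1. BMI1, a subunit of Polycomb repressive complex 1, is known for restraining senescence genes in many cell types.

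Sequences of the CLEAR type are shown first because they are the promoter feature by which this gene set is known. Promoters from 250 bases before to 50 bases after the start site (RefSeq, GRCh38.p14) were matched for 30 of the 40 genes. Those not matched were HEXA, MANBA, NAGLU, ARSA, ASAH1, CTSB, CTSK, CTSO, LAMP2 and PSAP. The E-box CACGTG, the longer TCACGTGA, and TCACGTGA with a G before it and a C after it (the full CLEAR palindrome) were searched. Each reads the same on both strands, and each longer motif contains the shorter ones. CACGTG was in 8 of the 30 promoters (26.7%), and in 2030 of 27305 promoters of the same length (7.43%), or 976 of the 9741 that belong to genes tested here (10%). TCACGTGA was in 4 of the 30 (13.3%), against 1.04% of all promoters and 1.98% of those of genes tested. The full palindrome was in 2 (6.67%), against 0.381% of all promoters and 0.79% of those of genes tested. These motifs were not particular to the set, as related lists read further below held them too. CACGTG was in 27.3% of 22 promoters of other lysosomal hydrolases, 20.8% of 24 of other membrane proteins and 30.8% of 13 of the proton pump. It was in 44.4% of 9 for enzyme sorting, 33.3% of 18 for mTORC1 and TFE control and 9.68% of 31 for autophagy. TCACGTGA ran from 6.45% to 33.3% over these lists. The 30-base windows below hold the longer motifs in GAA (acid alpha-glucosidase), CTSA (cathepsin A) and MCOLN1 (a lysosomal calcium channel), and the short one in CTSD (cathepsin D) and CD63 (a tetraspanin). The motif is in capitals.
GAA, chr17:80101493-80101522, plus strand: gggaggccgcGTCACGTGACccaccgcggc
GAA, chr17:80101538-80101567, plus strand: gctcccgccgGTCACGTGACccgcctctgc
MCOLN1, chr19:7522598-7522627, plus strand: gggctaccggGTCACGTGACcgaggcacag
MCOLN1, chr19:7522571-7522600, plus strand: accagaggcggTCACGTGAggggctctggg
CTSA, chr20:45891298-45891327, plus strand: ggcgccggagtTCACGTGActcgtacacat
CTSD, chr11:1763957-1763986, minus strand: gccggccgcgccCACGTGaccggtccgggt
CD63, chr12:55729172-55729201, minus strand: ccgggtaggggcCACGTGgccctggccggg

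LAMP1, which encodes the most abundant lysosomal membrane glycoprotein in many cells, had the most E-boxes among the 30 promoters searched, with 6. The 204 bases upstream of its start site held 5 of them, 4 closely spaced, and the other one spans the start site. The 2 nearest the start site are of the TCACGTGA form. The E-boxes are in capitals.
LAMP1, chr13:113297035-113297238, plus strand: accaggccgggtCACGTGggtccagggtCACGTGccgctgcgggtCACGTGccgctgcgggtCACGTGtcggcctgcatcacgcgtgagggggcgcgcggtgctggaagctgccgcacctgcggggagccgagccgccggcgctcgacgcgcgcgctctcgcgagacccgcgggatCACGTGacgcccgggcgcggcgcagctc

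The libraries held 4962745 to 9640349 counts in the knockdown group and 5496683 to 6870122 in the control group. BMI1, the target, had 39.9, 21.5 and 26.2 CPM (counts scaled to the library total) in knockdown libraries 1, 2 and 3, against 85.1, 90.0 and 87.4 CPM in control libraries. COMMD3-BMI1 was listed at 0 counts in all 6 libraries, so reads of the read-through may lie under BMI1 or COMMD3. COMMD3 had 31.6, 33.4 and 32.5 CPM in knockdown libraries, against 23.9, 27.5 and 27.4 CPM in control libraries, and passed in neither fit. Knockdown library 2 stood apart: its score on principal component 1, which held 49.2% of the variance, was 40.2, and the other scores ran from -25.5 to 11.5. The 10 neural stem cell markers summed to 2936 to 4106 CPM in knockdown and 3534 to 3800 CPM in control libraries, with a median log2 fold change of -0.19 and 7 of the 9 tested negative. SOX2 had 282.5 to 386.3 CPM in knockdown and 321.8 to 384.0 CPM in control libraries, while HES5 was listed at 0. NES was at 576.7 CPM in knockdown library 2 and from 1004 to 1025 CPM in the other knockdown libraries, against 974.6 to 1068 CPM in control libraries. None of the 9 neural stem cell markers tested passed in either fit. Over all genes tested, same-numbered libraries of the groups deviated together, so the fit with the library number as a block is given beside the fit on group alone.

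The lysosomal genes were on balance higher in knockdown cells, with log2 fold changes from -0.41 for TFEB to 0.65 for CTSK. In the fit on group alone, 29 of the 37 tested genes had a positive log2 fold change (78.4%, against 49.6% of all 12937 genes tested) and their median was 0.28, where the median of all genes was -0.0029. No member passed an adjusted p of 0.05 in this fit (edgeR's quasi-likelihood test), nor did any gene tested (0.00%). At an unadjusted p under 0.05, 7 members were higher (18.9%, against 6.56% of all genes tested) and none was lower (7.88% of all genes), where 14.4% of all genes lay under it in either direction. With the library number as a block 8 members rose and none fell: IDS, SMPD1, LIPA, CTSB, LAMP1, PSAP, GRN and SQSTM1. That is 21.6% of the members tested, against 4.63% of all genes called higher, 5.39% called lower and 10% called in either direction. DESeq2 without the block called 1 member, PSAP (1.10% of all genes). The members were chosen as lysosomal genes with earlier results of these data known, so these shares are descriptions.

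**Figure D1:**
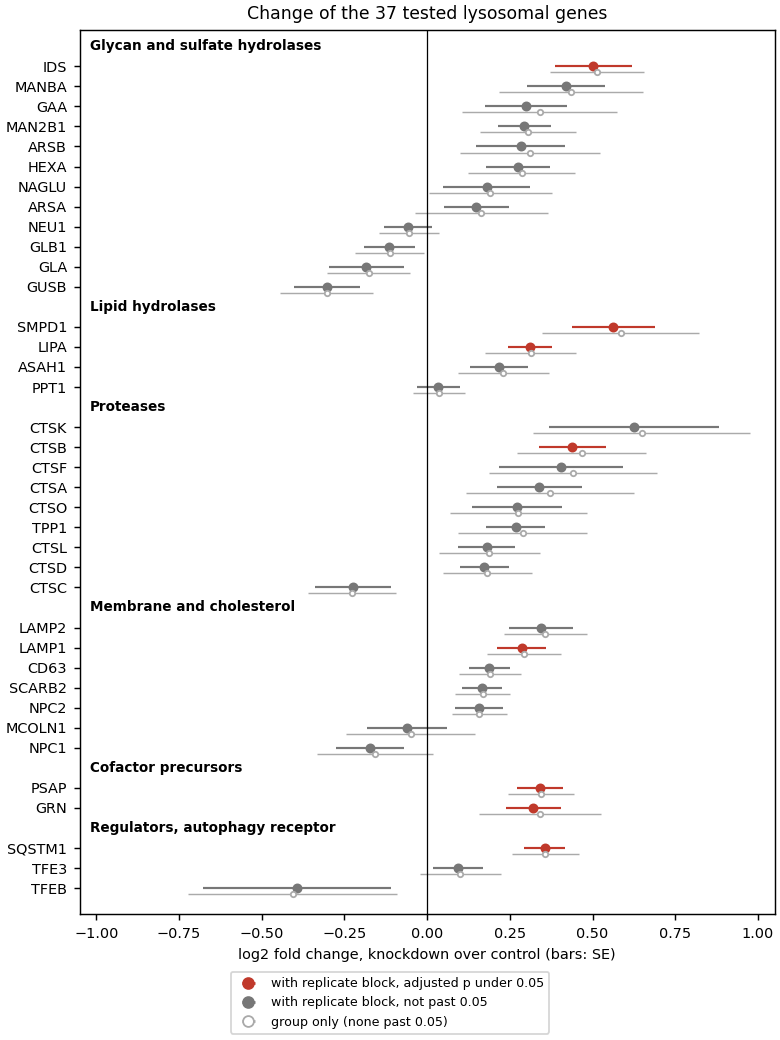
Log2 fold change of each tested gene (x axis, knockdown over control, bars are SE), grouped by role on the y axis. Filled points come from the fit with the library number as a block, red where the adjusted p is under 0.05, and open points from the fit on group alone. The 8 red genes all lie right of 0, and 8 of the 37 open points lie left of it.

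Levels per length, in CPM per kilobase of merged exon (GENCODE 29), differed widely between members. PSAP was the highest of the set at 276.7 ± 23.1 in knockdown and 218.0 ± 2.28 in control libraries (SD, n = 3 each), rank 88 of 12261 genes in control. CD63 followed at 124.8 ± 10.4 in knockdown and 109.5 ± 4.75 in control libraries, then LAMP1, CTSD and SQSTM1. The control median was 19.4 over the 37 tested members and 11.6 over all 12261 genes with a length.

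**Figure D2:**
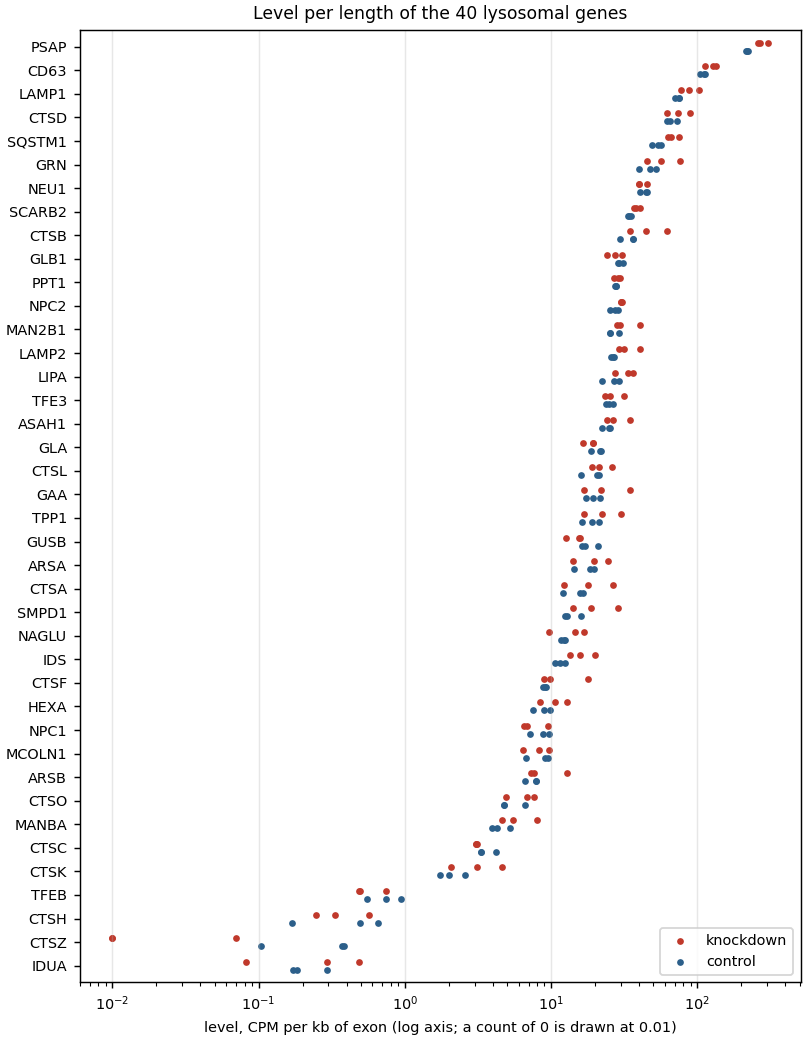
Level per length of the 40 genes (x axis, CPM per kilobase of exon, log scale), ordered on the y axis by the control mean, with 1 point per library. Levels run from 218.0 for PSAP to below 1 for TFEB, CTSH, CTSZ and IDUA in control libraries.

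At the bottom of this order were genes with few reads. CTSZ, encoding cathepsin Z, had 0, 0 and 1 counts in knockdown and 3, 1 and 4 counts in control libraries. CTSH, encoding cathepsin H, had 6, 4 and 7 counts in knockdown and 2, 7 and 10 counts in control libraries. IDUA, encoding alpha-L-iduronidase, had 1, 9 and 7 counts in knockdown and 4, 3 and 3 counts in control libraries. These genes were not tested in the fits above, and such counts are too few to read a difference or the lack of one.

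The enzymes that degrade glycans and their sulfate groups formed the largest role, with 13 members of which 12 were tested. Their estimates lay to either side of 0: 8 had a positive and 4 a negative log2 fold change, and the median was 0.24. Of all genes tested, 49.6% had a positive value. Within same-numbered libraries 1, 2 and 3 the median log2 difference of this role was -0.02, 0.46 and 0.15. IDS was the member of this role that rose with the block (4.63% of all genes tested were called higher). IDS encodes iduronate sulfatase, which acts on dermatan and heparan sulfate. It had 114.1, 168.4 and 134.1 CPM in knockdown libraries 1, 2 and 3, against 96.8, 90.1 and 105.3 CPM in control libraries, so the groups did not overlap. With the block the log2 fold change was 0.50 (SE 0.117, n = 3 each, edgeR adjusted p 0.0361), and the adjusted p without the block was 0.258. Annotation places IDS on chromosome X at 149476990 to 149521096 (GRCh38), and its exons share 1529 bases with another transcript model on the same strand, AC244197.3.

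GLB1, the gene of lysosomal beta-galactosidase, was not among the genes that rose. Its levels were 66.0, 83.5 and 74.8 CPM in knockdown libraries, against 80.1, 85.3 and 77.8 CPM in control libraries. The groups overlapped, and each knockdown library lay below the control library of its number. The log2 fold change was -0.11 (SE 0.0772) with the block, at an edgeR adjusted p of 0.360, and 0.641 without the block.

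Other glycan hydrolases lay to either side. GUSB, encoding beta-glucuronidase, averaged 33.6 ± 4.03 CPM in knockdown and 41.6 ± 5.92 CPM in control libraries (SD, n = 3 each), without overlap, at -0.30 (block adjusted p 0.0857). Its pseudogenes GUSBP1 and GUSBP4 had 272 and 271 counts in all libraries together, so GUSB reads could have been split. MAN2B1 (lysosomal alpha-mannosidase) and MANBA (beta-mannosidase) lay just outside the threshold at 0.29 and 0.42, with block adjusted p-values of 0.0510 and 0.0559. GAA, ARSB (arylsulfatase B), HEXA (beta-hexosaminidase alpha subunit), NAGLU (alpha-N-acetylglucosaminidase) and ARSA (arylsulfatase A) had block values between 0.15 and 0.30. GLA (alpha-galactosidase A) was at -0.18 and NEU1 (sialidase) at -0.06. None of these genes passed in either fit.

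Lipid hydrolases were higher in 4 of 4 tested genes, and 2 rose with the block (49.6% and 4.63% of all genes tested). SMPD1, which encodes acid sphingomyelinase, had 34.7, 70.0 and 46.1 CPM in knockdown libraries, against 31.6, 39.3 and 30.3 CPM in control libraries. Knockdown libraries 2 and 3 lay above every control library, and knockdown library 1 lay between them. SMPD1 rose by 0.56 on the log2 scale with the block (SE 0.126, edgeR adjusted p 0.0327, and 0.315 without the block).

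LIPA encodes the acid lipase that frees cholesterol from its esters. It had 83.1, 111.9 and 102.2 CPM in knockdown libraries, against 67.8, 88.7 and 83.0 CPM in control libraries. The groups overlapped, but the differences within pairs were nearly equal, at 0.29, 0.33 and 0.30 on the log2 scale. The block fit gave 0.31 (SE 0.0656, edgeR adjusted p 0.0292, and 0.347 without the block). LIPA exons share 65 bases with IFIT2 on the opposite strand. ASAH1 (acid ceramidase) was at 0.22 and PPT1 (palmitoyl-protein thioesterase) at 0.03, and neither passed. PPT1 exons share 1189 bases with CAP1 on the opposite strand, which had 15448 counts against 4951 for PPT1.

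Of 11 proteases, 9 were tested, 8 had a positive value and 1 rose with the block (49.6% and 4.63% of all genes tested). That gene was CTSB, encoding cathepsin B, a cysteine protease. It had 143.7, 256.5 and 186.5 CPM in knockdown libraries, against 122.4, 151.5 and 151.2 CPM in control libraries. Knockdown libraries 2 and 3 were above all controls, while knockdown library 1 fell inside the control range. With the block, CTSB rose by 0.44 on the log2 scale (SE 0.100, edgeR adjusted p 0.0343, and 0.329 without the block).

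CTSD, the aspartic protease cathepsin D and the protease of highest level per length in the set, had 132.1, 189.1 and 156.9 CPM in knockdown libraries. Its control libraries had 131.8, 153.0 and 137.4 CPM. The groups overlapped and the block value was 0.17 (edgeR adjusted p 0.164). CTSK (cathepsin K, known for bone matrix breakdown in osteoclasts) had the largest value of the set at 0.62, but from 17 to 58 counts in knockdown and 16 to 30 counts in control libraries (adjusted p 0.148 with the block). CTSF, CTSA, CTSO, TPP1 and CTSL, all encoding lysosomal peptidases, had block values from 0.18 to 0.40. CTSC, encoding dipeptidyl peptidase cathepsin C, went the other way at -0.22, with 23.5 ± 0.175 CPM in knockdown and 27.5 ± 3.92 CPM in control libraries (SD, n = 3 each; adjusted p 0.236).

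Genes of membrane and cholesterol transport proteins were the role with the most members whose groups did not overlap. In 5 of the 7 genes of this role, LAMP1, LAMP2, SCARB2, CD63 and NPC2, the lowest knockdown library lay above the highest control library. Among the 37 genes tested this held for 8 (21.6%), against 9.28% of all genes tested. The reverse held for 2 of the 37, GUSB and CTSC, where all genes gave 11.2%, and for the untested CTSZ.

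LAMP1 had 208.8, 276.0 and 238.2 CPM in knockdown libraries, against 188.3, 201.1 and 201.1 CPM in control libraries. It rose by 0.29 on the log2 scale with the block (SE 0.0740, edgeR adjusted p 0.0456, and 0.299 without the block). The gene lies on chromosome 13 at 113297241 to 113323672 (GRCh38), and no other annotated exon overlaps its own. LAMP2, its paralog with a role in autophagy, lay just outside the threshold at 0.34 (block adjusted p 0.0568), with 186.5 ± 33.2 CPM in knockdown and 145.7 ± 2.91 CPM in control libraries (SD, n = 3 each).

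CD63 had 294.5, 261.5 and 308.3 CPM in knockdown libraries, against 256.9, 240.2 and 260.9 CPM in control libraries. The groups did not overlap, and library 2 was the lowest of each group. Its value was 0.19 (block adjusted p 0.0878). SCARB2, a receptor that carries glucocerebrosidase to the lysosome, was at 0.17, and the cholesterol-binding protein gene NPC2 at 0.16. NPC1, the membrane partner of NPC2 in cholesterol export, was at -0.17, and MCOLN1 at -0.06. None of the last 5 genes passed in either fit.

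Both cofactor precursors rose with the block (4.63% of all genes tested were called higher). PSAP encodes prosaposin, which is cut into the saposins that present sphingolipids to their hydrolases. PSAP had 748.5, 872.8 and 770.1 CPM in knockdown libraries, against 621.3, 628.8 and 634.4 CPM in control libraries. The 3 control libraries lay within a narrow range and every knockdown library was above it. PSAP rose by 0.34 on the log2 scale with the block (SE 0.0700, n = 3 each, edgeR adjusted p 0.0281, and 0.258 without the block). DESeq2 without the block gave PSAP an adjusted p of 0.0443. PSAP lies on chromosome 10 at 71816298 to 71851375 (GRCh38).

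GRN encodes progranulin, a secreted and lysosomal glycoprotein cut into granulins. It had 105.3, 176.9 and 131.4 CPM in knockdown libraries, against 93.3, 122.1 and 111.7 CPM in control libraries. The groups overlapped, and each knockdown library was above the control library of its number. The block fit gave 0.32 (SE 0.0826, edgeR adjusted p 0.0447, and 0.435 without the block).

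SQSTM1 encodes the receptor that links ubiquitinated cargo to autophagosomes. It had 218.4, 227.9 and 259.0 CPM in knockdown libraries, against 169.4, 185.5 and 195.8 CPM in control libraries, without overlap. SQSTM1 rose by 0.36 on the log2 scale (SE 0.0619, edgeR adjusted p 0.0244 with the block and 0.258 without it), the smallest block p of the set. It was also the member of the 8 that changed most evenly beside LIPA, by 0.37, 0.30 and 0.40 in pairs 1, 2 and 3. Its exons share 1582 bases with MRNIP and 105 with MGAT4B on the opposite strand, and whether the counting used strand is not stated.

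The TFE regulators themselves did not pass. TFEB had 3.31, 2.16 and 2.20 CPM in knockdown libraries, against 3.31, 4.17 and 2.45 CPM in control libraries, from 16 to 27 counts each, at a block value of -0.39 (SE 0.284, edgeR adjusted p 0.393). TFE3, the more abundant of them, had 79.6, 86.5 and 107.8 CPM in knockdown libraries, against 81.0, 84.4 and 90.9 CPM in control libraries. Its value was 0.09 (edgeR adjusted p 0.460), and the groups overlapped. These are transcript levels and hold no information on where the proteins were in the cell.

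**Figure D3:**
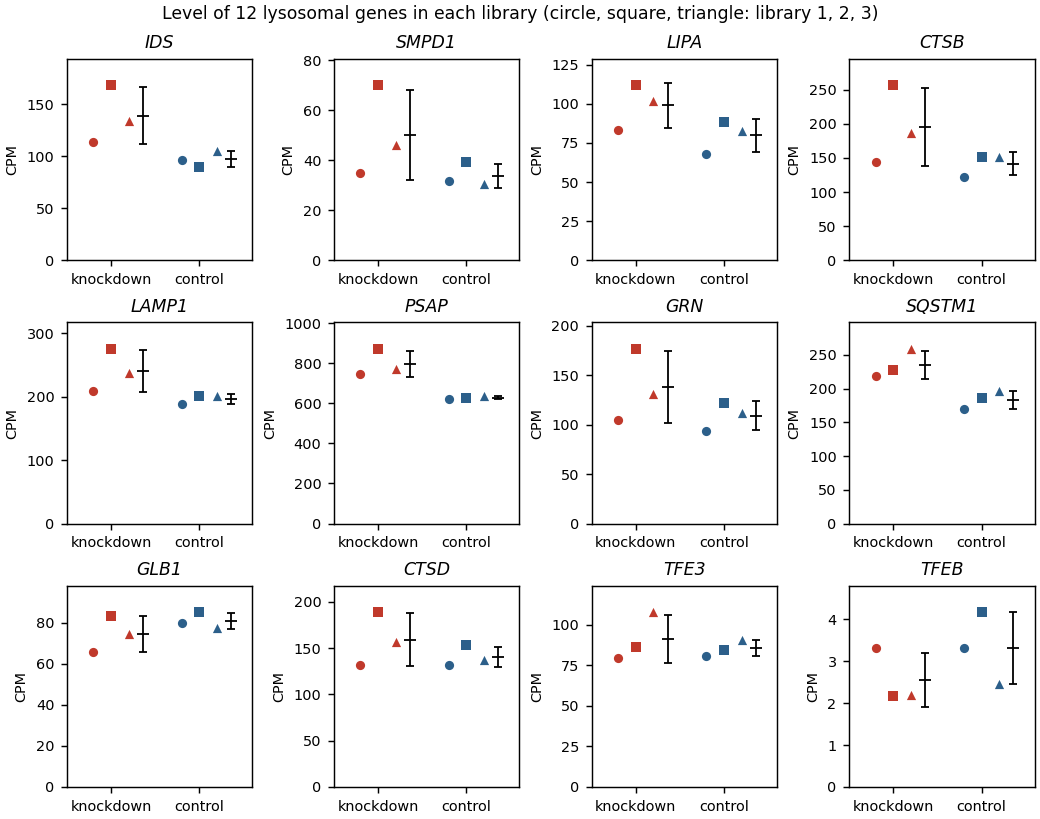
Level of 12 genes (y axis, CPM from 0) in each knockdown library (red) and control library (blue). Symbols give the library number and black bars the mean and SD of 3 libraries. PSAP, IDS, LAMP1 and SQSTM1 do not overlap between groups, SMPD1, LIPA, CTSB and GRN do, and GLB1, CTSD, TFE3 and TFEB did not pass in either fit.

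The size of the change differed between the pairs of same-numbered libraries. The median log2 difference over the 37 genes was 0.09, 0.46 and 0.19 in pairs 1, 2 and 3. Over all genes tested these medians were -0.00041, -0.0099 and -0.00036. In all 3 pairs 23 members were higher (62.2%, against 25.6% of all genes tested) and 4 were lower: GLB1, GUSB, CTSC and NPC1 (26.7% of all genes tested were lower in all pairs). Knockdown library 2 held the highest level of the 6 libraries for 24 of the 37 members (64.9%), and for 28.6% of all genes tested. Together the 40 genes made up 3709, 4746 and 4142 CPM in knockdown libraries 1, 2 and 3, against 3337, 3637 and 3586 CPM in control libraries.

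**Figure D4:**
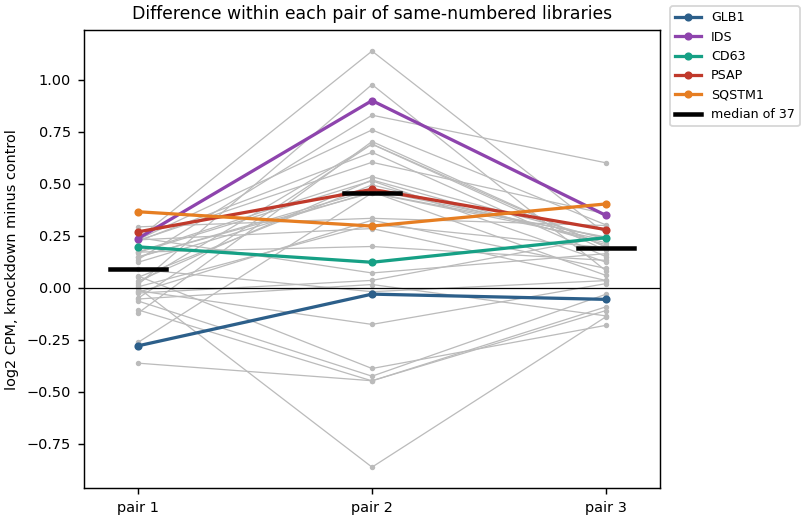
Log2 CPM difference of each tested gene within each pair of same-numbered libraries (y axis, knockdown minus control), with the median of the 37 genes as a black bar. The medians are 0.09, 0.46 and 0.19. SQSTM1, PSAP and CD63 lie above 0 in every pair and GLB1 below it.

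The median without knockdown library 2, in the fit on group alone, was 0.07, and no member passed. Without pair 2 the block fit called 12 members, all higher, among them all 8 of the full fit, at a median of 0.14 (32.4% of members, against 9.33% of all genes called higher). Without pair 1 it called 8, of which 5 were shared with the full fit (21.6%, against 4.5%). Without pair 3 only IDS, SMPD1 and CTSB of the 8 passed, beside LAMP2 (10.8%, against 2.94%). Without knockdown library 1 the fit on group alone called IDS and CTSB (5.41%, against 1.85% of all genes called higher).

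Other cell states moved in the same libraries. Summed over 16 genes of dividing cells, such as MKI67 and MCM2, the level was 2979, 1525 and 2111 CPM in knockdown libraries 1, 2 and 3, against 3464, 2992 and 2996 CPM in control libraries. With the block, 15 of the 16 fell (5.39% of all genes fell and 4.63% rose). The library with the lowest sum was the one with the highest lysosomal sum. The 9 mesenchymal markers summed to 2063 to 2782 CPM in knockdown and 1676 to 2014 CPM in control libraries, and COL3A1 and POSTN rose with the block. Of 9 astrocyte markers 6 were tested, and GJA1, APOE and SPARCL1 rose with the block. S100B (0.23), SLC1A3 (0.04) and AQP4 (-0.24) did not pass. GFAP, ALDH1L1 and SLC1A2 had too few reads to be tested. Sums over the 9 astrocyte markers were 819.2 to 934.7 CPM in knockdown and 728.0 to 799.5 CPM in control libraries. Of 9 neuron markers 5 were tested, and ELAVL3 and NEFM fell with the block. TUBB3 and SYP were negative and MAP2, the highest of them, was positive at 0.15, and none of these passed. DCX, STMN2, ELAVL4 and RBFOX3 had too few reads to be tested. Sums over the 9 neuron markers were 695.4 to 913.8 CPM in knockdown and 817.8 to 934.6 CPM in control libraries. The part of these in the lysosomal values was not tested. In bulk RNA, a change in the number of cells of a type and a change in RNA per cell cannot be told apart. The 10 markers of microglia and macrophages, which are rich in lysosomes, summed to 2.3 to 2.8 CPM in knockdown and 2.9 to 3.6 CPM in control libraries, with CSF1R, PTPRC and P2RY12 at 0 in all libraries.

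Further genes of the lysosome and of autophagy were read from lists that do not overlap the 40. Of 30 other lysosomal hydrolase genes tested, 24 had a positive log2 fold change (80%, against 49.6% of all genes tested), with a median of 0.17. With the block 2 rose (4.63% of all genes were called higher and 5.39% lower). Among them was HGSNAT, encoding an acetyltransferase of heparan sulfate breakdown, at 0.36. Of 25 other membrane protein genes, LAPTM4A rose and OSTM1 fell, 1 gene in each direction, which is no more than the share over all genes. LAPTM4A, a small transmembrane protein of endosomes and lysosomes, had 149.9, 225.3 and 194.3 CPM in knockdown libraries, against 120.7, 124.7 and 137.1 CPM in control libraries (0.56, edgeR adjusted p 0.0244 with the block and 0.258 without it). OSTM1, the partner of the chloride transporter CLCN7, had 70.9, 66.8 and 70.3 CPM in knockdown libraries, against 83.2, 100 and 92.0 CPM in control libraries (-0.41, adjusted p 0.0272 with the block and 0.258 without it).

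Of 18 genes of the proton pump that acidifies the lysosome, 3 rose with the block: ATP6V0E1 (0.41), ATP6V0D1 (0.31) and ATP6V1G1 (0.30). Their list had a median of 0.09. Of 10 genes of the sorting and maturation of lysosomal enzymes, GNPTG, a subunit of the enzyme that builds the phosphorylated mannose tag, rose by 0.34. Of 21 genes of mTORC1 and its control of TFE factors, none rose and LAMTOR1, a subunit of the complex that anchors mTORC1 at the lysosome, fell by 0.42. Over all genes, 4.63% were called higher and 5.39% lower.

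Of 36 autophagy genes tested, 29 had a positive value (median 0.14), 4 rose with the block and none fell. Over all genes tested, 49.6% had a positive value, 4.63% were called higher with the block and 5.39% lower. WIPI1, a phosphoinositide-binding protein of early autophagosomes, had 36.8, 50.1 and 48.5 CPM in knockdown libraries, against 26.3, 28.4 and 29.6 CPM in control libraries. Its log2 fold change of 0.69 (SE 0.0977, edgeR adjusted p 0.0211 with the block and 0.258 without it) was larger than that of any of the 37 lysosomal genes. GABARAPL1, which is conjugated to autophagosome membranes, had 63.5, 91.8 and 82.5 CPM in knockdown libraries, against 54.8, 55.0 and 55.8 CPM in control libraries, at 0.52. Without the block, DESeq2 called WIPI1 (adjusted p 0.0172) and, of the membrane list above, LAPTM4A (0.0324). GABARAPL2 rose by 0.30 and NBR1, a cargo receptor that binds SQSTM1, by 0.24.

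**Figure D5:**
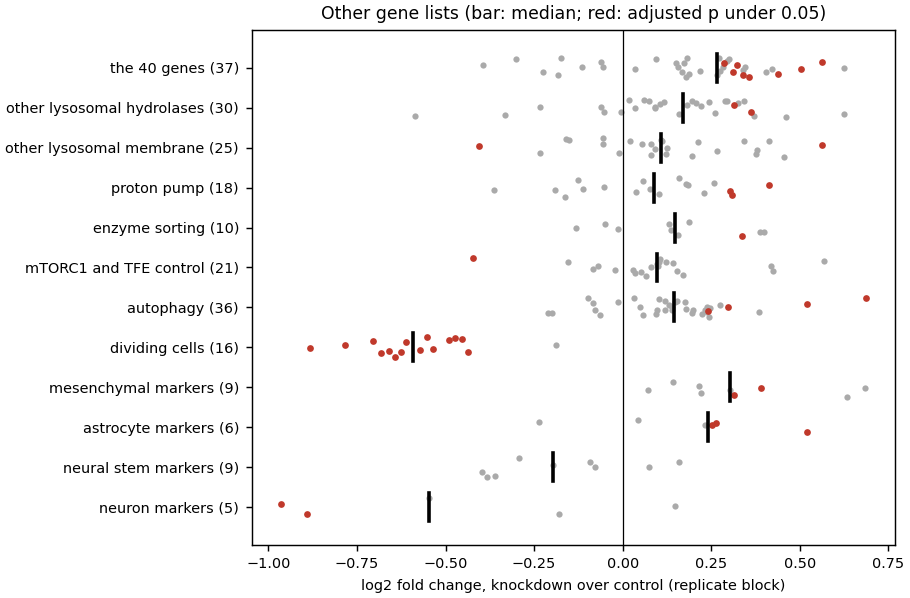
Log2 fold change with the library number as a block (x axis) for the genes of each list (y axis, number tested in brackets), red where the adjusted p is under 0.05. Black bars are medians: 0.27 for the lysosomal genes, 0.17 for other hydrolases, 0.14 for autophagy and -0.59 for genes of dividing cells.

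Changes were also read by promoter E-box, in the fit on group alone. Among tested genes with a promoter, the 8 with CACGTG had a median log2 fold change of 0.24 and the 19 without it 0.17. The 4 with TCACGTGA had a median of 0.32 and the 23 without it 0.18. These medians rest on few genes and the differences were not tested. With the block, 1 of the 8 with CACGTG passed (LAMP1) and 5 of the 19 without it did. Over all genes tested, 4.63% were called higher with the block and 5.39% lower. CTSB and PSAP, which also rose with the block, had no matched promoter and are in neither count. GAA and MCOLN1, the genes with the full palindrome shown above, were at 0.34 and -0.05 in the fit on group alone and passed in neither fit. These are counts of letters in 300 bases and say nothing about binding of any factor.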

How the data were processed

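Directional libraries made from total RNA of AF22 cells were sequenced, per the labels' protocols. The authors deposited 1 table per library of raw whole-number read counts for 26485 gene symbols, with no filter stated. The submitters' processing notes name Trim Galore 0.6.6, STAR 2.7.10a, bedtools and hg38. Counting program, annotation and use of strand: not given in the sources used here. Genes that overlap or lie antisense may therefore share reads.

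Groups and numbers came from the sample titles. The tests used edgeR 4.0.16 (R 4.3.3): filterByExpr (12937 genes), TMM scaling, quasi-likelihood test with group as the only term, Benjamini-Hochberg adjustment over all genes tested, threshold 0.05. CPM use TMM-scaled totals, log2 CPM a prior count of 2, and an SE is the log2 fold change divided by the square root of F. Libraries of the same group differed by more than sampling noise (chi-square per gene at least 3.19). Control library 1 and knockdown library 1 were the closest of any 2 libraries, at 2.74, while knockdown libraries 1 and 2 were at 16.8. Same-numbered libraries deviated together from their group means, with correlations of 0.563, 0.467 and 0.535 over all genes tested. On this basis each number was treated as a pair. Over the 37 members alone the correlations were 0.497, 0.143 and 0.550 in pairs 1, 2 and 3, so pair 2 deviated together only weakly for them. The pairing comes from the data, not from the labels. The pipeline was tested on simulated data. The members, lists, tests and alternatives were chosen with earlier results of these data known. Of 225 list genes all were found, 2 under an older symbol. All members were named, and per-library values are given for those past the threshold in either fit, for GLB1, CTSD, CTSB, LAMP1, TFEB, TFE3 and SQSTM1, and for the 5 of highest level per length. From other lists the members past the threshold were named, at most 5 per list, and a few of these are not reported here. Exon lengths, overlaps and gene positions came from GENCODE 29 (GRCh38), promoters from RefSeq. Alternatives were RLE or total count scaling, other filters, DESeq2 1.42.0, limma 3.58.1 voom, leaving out libraries and the replicate block.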

Additional observations from a re-analysis of the deposited data

How the results depend on the processing

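The call of no member in the fit on group alone was unchanged with RLE or total count scaling, with no filter, with at least 1 CPM in 3 libraries and with limma voom, and DESeq2 called 1 member. Leaving out 1 library gave 0 to 2 members, medians of 0.071 (without knockdown library 2) to 0.39 (without knockdown library 1) and 0 to 665 genes in all. Over all genes, 1869 had an unadjusted p under 0.05, DESeq2 called 142 and edgeR with no filter 2. The replicate block called 8 members of 1296 genes. With the block, DESeq2 called 5 members and 590 genes, RLE scaling 9 and 1335, total count scaling 6 and 1283, and no filter 12 and 2171. Leaving out 1 pair with the block gave 4 to 12 members, medians of 0.14 to 0.32 and 912 to 2296 genes (1320 without pair 1). Every member called under any of these settings was higher in knockdown. Signs turned for 5 members that passed in neither full fit (ARSB passed with the block without pair 1): over the settings that leave out a library, MCOLN1 ran from -0.183 to 0.079 (0.041 without control library 2, 0.0046 without control library 3), ARSA from -0.030 (without knockdown library 2) to 0.339, ARSB from -0.0028 (without knockdown library 2) to 0.454 and TFE3 from -0.040 (without knockdown library 3) to 0.190, and NEU1 was at 0.0046 with the block without pair 2. The cause was not tested. Totals of 4962745 to 9640349 counts limit TFEB, CTSK, CTSZ, CTSH and IDUA most.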

Other observations

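Lists of cathepsin inhibitors and of senescence genes were read beside the lysosomal genes, and genes of them that did not pass are named here after their values were seen. Inhibitors of cathepsins did not pass in either fit: CST3, encoding the secreted inhibitor cystatin C, had 107.3 ± 2.81 CPM in knockdown and 93.3 ± 4.62 CPM in control libraries (SD, n = 3 each), without overlap, at 0.20 (edgeR adjusted p 0.101 with the block). CSTB, encoding the cytosolic inhibitor cystatin B, had 56.2 ± 10.9 CPM in knockdown and 57.9 ± 1.65 CPM in control libraries. SERPINB6 was at -0.19 (adjusted p 0.192).

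Of 10 genes associated with senescence, read beside GLB1, 4 rose with the block and 2 fell (4.63% of all genes were called higher and 5.39% lower). CDKN1A (0.48) and CDKN2B (0.79), which encode inhibitors of cyclin-dependent kinases, and PLAUR (1.22), which encodes the urokinase receptor, were among those that rose. LMNB1, the lamin B1 gene, fell by 0.38, with 235.4 ± 53.9 CPM in knockdown and 302.2 ± 36.5 CPM in control libraries (SD, n = 3 each), and the chromatin protein gene HMGB2 fell by 0.54. HMGB1 (-0.33), IGFBP3 (-0.43), GDF15 (0.01) and CDKN2A (0.60) did not pass. No gene of this list passed in edgeR's fit on group alone, and DESeq2 without the block called CDKN1A (adjusted p 0.0497).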
